A study of Rattus norvegicus with 30 samples.

Results

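The p53 targets and growth arrest genes described here are a list of 37 genes, named by the platform's gene symbols, that place a brake on the cell cycle, repair DNA, feed back on p53 or take part in cell death, together with the D-type cyclins that the brakes act on. Where a gene had several probe sets with exactly 1 symbol, the one with the highest mean over the arrays stood for it, and 32 of the 37 were measured, among 14506 genes in all. The expression of the other 5, Eda2r, Ddb2, Sfn, Fdxr and Pidd1, was not analysed here.

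The cells were primary cultures of rat inner medullary collecting duct, the last segment of the renal tubule, which in the animal faces interstitial fluid of high and changing osmolality. Total RNA of 30 samples was hybridised to 1 Affymetrix whole-transcript array each, and the values are log2 expression, on which a difference of 1 is a 2-fold change. There were 10 groups of 3 arrays. Cultures kept at 300, 600 or 900 mosmol/kg are called steady 300, steady 600 and steady 900. Cells moved from 300 to 600 mosmol/kg were taken after 3, 12, 24 and 48 h, cells moved from 600 to 900 after 12 and 24 h, and cells moved back from 900 to 300 after 24 h. The treatment field of every sample names cyclosporin A at 5 µM, while the titles do not mention it, and it is therefore unknown from the labels which of them were exposed. The labels give neither strain nor age, and nothing in them says that the 3 samples of a group are different cultures or rats. The p-values rest on the spread among the samples within a group, pooled over the 10 groups, which may be technical only.

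Values of 3 arrays of a group correlated at 0.991 to 0.998 over all genes, and all 30 arrays had their closest array in their own group. One array each of the 3 h group (replicate 3) and of the 12 h group after the step to 900 (replicate 9) stood further from its group, with median absolute differences of 0.205 and 0.2 from the first array of the group. Markers showed a culture whose state moved with osmolality. The water channel gene Aqp2, which defines principal cells of the collecting duct, was at 5.61 ± 0.49 (SD, n = 3) in steady 300 and 12.04 ± 0.07 in steady 900, and at 7.99 ± 0.17 in the returned cells. Leukocyte markers were lower in steady 900 than in steady 300 in 12 of 12 cases, and fibroblast markers in 8 of 11. In bulk samples such as these, fewer cells of a type and less RNA per cell cannot be told apart.

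As background, p53 is a transcription factor that is held low by the ubiquitin ligase Mdm2 and its partner Mdm4 and that accumulates after DNA damage and other stress. It binds DNA at a response element made of a pair of similar half-sites, and its targets include Cdkn1a, which encodes the cyclin-dependent kinase inhibitor p21, and Mdm2 itself, which closes a feedback loop. Many growth arrest genes, among them the inhibitors Cdkn1b, Cdkn1c and Cdkn2b and the Gadd45 genes, also respond to signals that do not pass through p53, and hypertonic stress of renal medullary cells is known to activate p53 and to slow the cell cycle.

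The p53 response element was searched for in RefSeq promoter windows of the GRCr8 assembly, each 300 bases long with 250 bases before and 50 after the gene's start. Windows were found for 28 of the 37 listed genes, 24 of them measured. With both half-sites in a row and at most 2 mismatches among the 20 consensus bases, the invariant C and G of each half-site being required, 112 of 33469 windows held a match (0.335%), against 4 of the 28 (14.3%). One of the 4 is Pidd1, whose expression was not analysed here. The consensus reads the same on both strands, so one search covers both. The list was made up in large part of known p53 targets, so its share of matches is not a separate result. In all 3 measured genes with such a match, every returned array lay above both steady groups, as it did for 16 of the 32 members and 13.6% of all genes. With 3 genes, a link between matches and the rise was not tested. The windows of these 3 genes are shown, with the matched 20 bases in capitals.
Ccng1: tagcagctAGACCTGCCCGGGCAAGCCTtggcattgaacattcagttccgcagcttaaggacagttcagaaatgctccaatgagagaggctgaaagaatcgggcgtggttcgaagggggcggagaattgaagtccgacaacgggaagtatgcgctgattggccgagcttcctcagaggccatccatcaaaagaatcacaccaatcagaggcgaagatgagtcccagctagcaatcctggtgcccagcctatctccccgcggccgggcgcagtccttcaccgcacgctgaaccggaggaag
Cdkn1a: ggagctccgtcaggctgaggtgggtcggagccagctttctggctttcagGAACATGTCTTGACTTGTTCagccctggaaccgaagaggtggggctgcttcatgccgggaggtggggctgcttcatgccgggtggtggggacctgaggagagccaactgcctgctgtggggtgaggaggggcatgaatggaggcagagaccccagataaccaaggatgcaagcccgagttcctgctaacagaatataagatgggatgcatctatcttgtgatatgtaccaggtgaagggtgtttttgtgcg
Aen: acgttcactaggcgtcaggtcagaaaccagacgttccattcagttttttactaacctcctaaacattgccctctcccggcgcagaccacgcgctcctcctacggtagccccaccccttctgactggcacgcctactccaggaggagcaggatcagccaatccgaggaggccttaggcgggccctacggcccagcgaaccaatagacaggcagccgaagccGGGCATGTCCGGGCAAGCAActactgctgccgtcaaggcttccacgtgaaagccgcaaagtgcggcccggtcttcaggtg
The Ccng1 window lies at chr10:25684827-25685126 on the minus strand, with 1 mismatch and the match at -242 to -223 from the start. For Cdkn1a the window is chr20:7150682-7150981 on the plus strand, with 1 mismatch and the match at -201 to -182. The Aen window, chr1:142224283-142224582 on the plus strand, holds its match at -30 to -11 with 2 mismatches. When up to 13 bases were allowed between the half-sites, 3.53% of all windows and 6 of the 28 members' windows (21.4%) matched, adding Sesn1 and Gadd45a. Gadd45a had every returned array above both steady groups, while Sesn1 fell from a mean of 7.64 in steady 900 to 6.51 after the return. A match is a description of letters in this window, not a bound site, and the search says nothing of elements further away, such as those in introns.

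The return from 900 to 300 mosmol/kg moved most members. Against steady 900, 21 of the 32 rose and 5 fell after 24 h, where 19.3% of all genes rose and 18.5% fell at an adjusted p under 0.05 (limma, with Benjamini-Hochberg adjustment over all 14506 genes, as for every adjusted p given here). The median change of the members was 0.47, against -0.02 over all genes. The death receptor gene Fas, the tumour suppressor Cdkn2a and the p53-induced nuclease gene Aen rose at least 2-fold, as 2.06% of all genes did, and Cdkn1c and Sesn1 fell at least 2-fold, as 2.03% did. Fas and Cdkn2a started low, at 5.77 and 5.49 in steady 900, near the array medians of 5.63 to 5.76, and signal over background was not used. Against steady 300, the medium the cells had returned to, 18 members were higher and 4 lower, where 20.4% of all genes were higher and 22.2% lower, with a median of 0.26 against -0.02. Both comparisons use the same 3 returned arrays, so their values are given side by side and are not separate evidence.

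**Figure D1:**
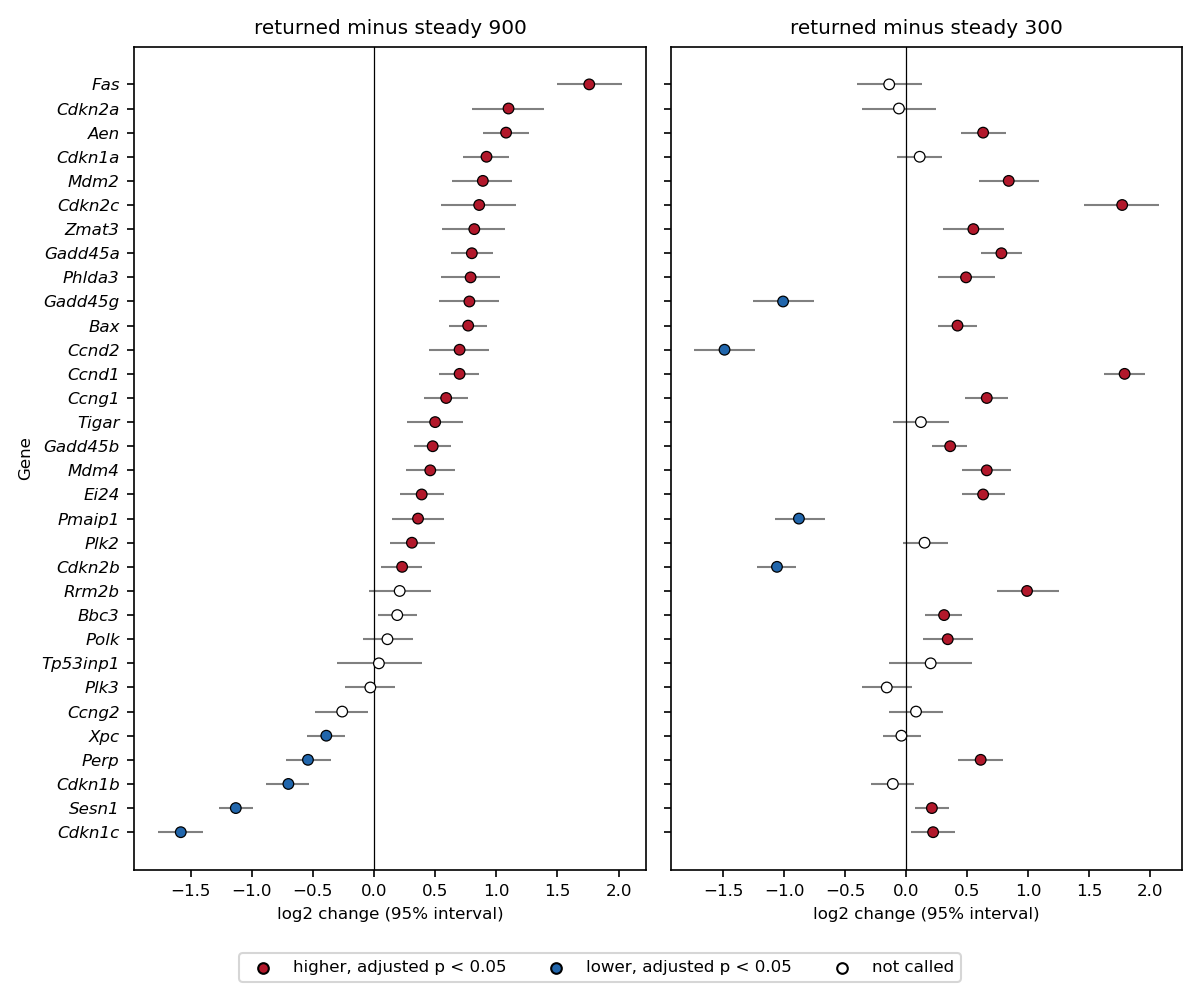
Log2 change of the 32 measured members in cells returned from 900 to 300 mosmol/kg for 24 h, minus steady 900 (left) and minus steady 300 (right). Points are fitted differences between groups of 3 arrays, bars are 95% intervals, and filled points passed an adjusted p of 0.05. The left panel has 21 higher and 5 lower members, from Fas at 1.76 to Cdkn1c at -1.58, and in the right panel Ccnd1 and Cdkn2c are the furthest above 0 and Ccnd2 the furthest below.

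For 16 of the 32 members, every returned array lay above every array of both steady 300 and steady 900, a pattern held by 13.6% of all genes. They were Mdm2, Mdm4, Ccng1, Cdkn1a, Cdkn2c, Ccnd1, Gadd45a, Gadd45b, Zmat3, Plk2, Bax, Bbc3, Phlda3, Aen, Ei24 and Rrm2b. Lying above both groups is not the same as passing both tests. Cdkn1a and Plk2 did not pass the test against steady 300, nor did Bbc3 and Rrm2b against steady 900. Cdkn1b alone among the members lay below all arrays of both steady groups, as 11.7% of all genes did. That count of 1 became 0 with median centring and with cyclic loess, and 2 without steady 900 replicate 2. The count of members above both was 15 to 18 under other scalings and with any 1 of the 9 arrays left out.

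All 3 feedback genes rose in the return against steady 900, where 19.3% of all genes rose. Mdm2, the ubiquitin ligase that targets p53 for degradation, read 10.45, 10.65 and 10.44 in the returned arrays, 9.64, 9.61 and 9.63 in steady 900 and 9.67, 9.67 and 9.68 in steady 300. The returned arrays were all above both steady groups, which lay close to each other. The difference was 0.89 ± 0.12 (SE) against steady 900, 1.85-fold, with an adjusted p of 6.3e-07, and 0.84 ± 0.12 against steady 300, with an adjusted p of 9.56e-07. Ccng1, which encodes cyclin G1, a p53 target that acts on Mdm2 through a phosphatase, showed the same arrangement. Its levels were 11.72, 11.77 and 11.8 in the returned arrays, 11.12, 11.22 and 11.17 in steady 900 and 11.05, 11.15 and 11.12 in steady 300. The steady groups overlapped, and the returned arrays stood clear of both, by 0.59 ± 0.09 (adjusted p = 2.1e-06) and 0.66 ± 0.09 (adjusted p = 2.38e-07). Mdm4, the Mdm2 partner that masks the activation domain of p53, rose by 0.46 ± 0.10 against steady 900 and was 0.66 ± 0.10 above steady 300.

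The 6 cyclin-dependent kinase inhibitors did not move as a block. Cdkn1a, the gene of p21, read 10.89, 10.92 and 10.88 in the returned arrays, 10.01, 10.02 and 9.92 in steady 900 and 10.73, 10.77 and 10.86 in steady 300. Steady 900 was the low group, and the returned arrays were just above the highest steady 300 array. The rise from steady 900 was 0.92 ± 0.09, 1.89-fold, with an adjusted p of 2.38e-09. The difference from steady 300 was 0.11 ± 0.09, with a 95% interval of -0.08 to 0.29 and an adjusted p of 0.368, and so did not pass the test. Cdkn2a, whose locus encodes p16 and the Mdm2 inhibitor ARF, read 6.57, 6.64 and 6.56 after the return, 5.56, 5.18 and 5.74 in steady 900 and 6.91, 6.51 and 6.52 in steady 300. Returned and steady 300 arrays overlapped and steady 900 lay below both. The rise was 1.10 ± 0.14 (2.14-fold, adjusted p = 4.37e-07), and the difference from steady 300 was -0.06, with a 95% interval of -0.36 to 0.24. The probe set does not tell the p16 and ARF transcripts apart here, since only the symbol is known.

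Cdkn2c, the gene of the Cdk4 and Cdk6 inhibitor p18, behaved otherwise: its returned arrays, at 7.51, 7.36 and 7.51, lay above steady 900, at 6.35, 6.73 and 6.73, which in turn lay above steady 300, at 5.63, 5.7 and 5.73. It rose by 0.86 ± 0.15 against steady 900 (adjusted p = 2.84e-05) and was 1.77 ± 0.15 above steady 300 (3.4-fold, adjusted p = 3.95e-11). Cdkn2b, the gene of p15, which TGF-beta induces, lay below steady 300 after the return, at a difference of -1.06 ± 0.08 (adjusted p = 3.52e-12). Its difference from steady 900 was 0.23 ± 0.08 (adjusted p = 0.0256), and the adjusted p rose to 0.0695 to 0.124 when returned replicate 2 or 9 or steady 900 replicate 2 was left out.

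The remaining Cip/Kip inhibitors fell. Cdkn1c, the gene of p57, read 7.51, 7.54 and 7.62 in the returned arrays, 9.26, 9.09 and 9.08 in steady 900 and 7.45, 7.42 and 7.15 in steady 300. It was high only in steady 900 among these 3 groups, and it fell by 1.58 on the log2 scale, 3.0-fold, with an SE of 0.09 and an adjusted p of 2.84e-14. Returned arrays lay just above steady 300, by 0.22 ± 0.09 (adjusted p = 0.0482), and the adjusted p was 0.06 to 0.338 without steady 300 replicate 3 or any 1 returned array, 0.0788 with only the compared arrays and 0.133 with the replicate number as a block. Cdkn1b, the gene of p27, a brake on cyclin E and Cdk2 that marks resting cells, fell by 0.70 ± 0.09 from steady 900 (adjusted p = 1.19e-07) and differed from steady 300 by -0.11, with a 95% interval of -0.29 to 0.06.

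**Figure D2:**
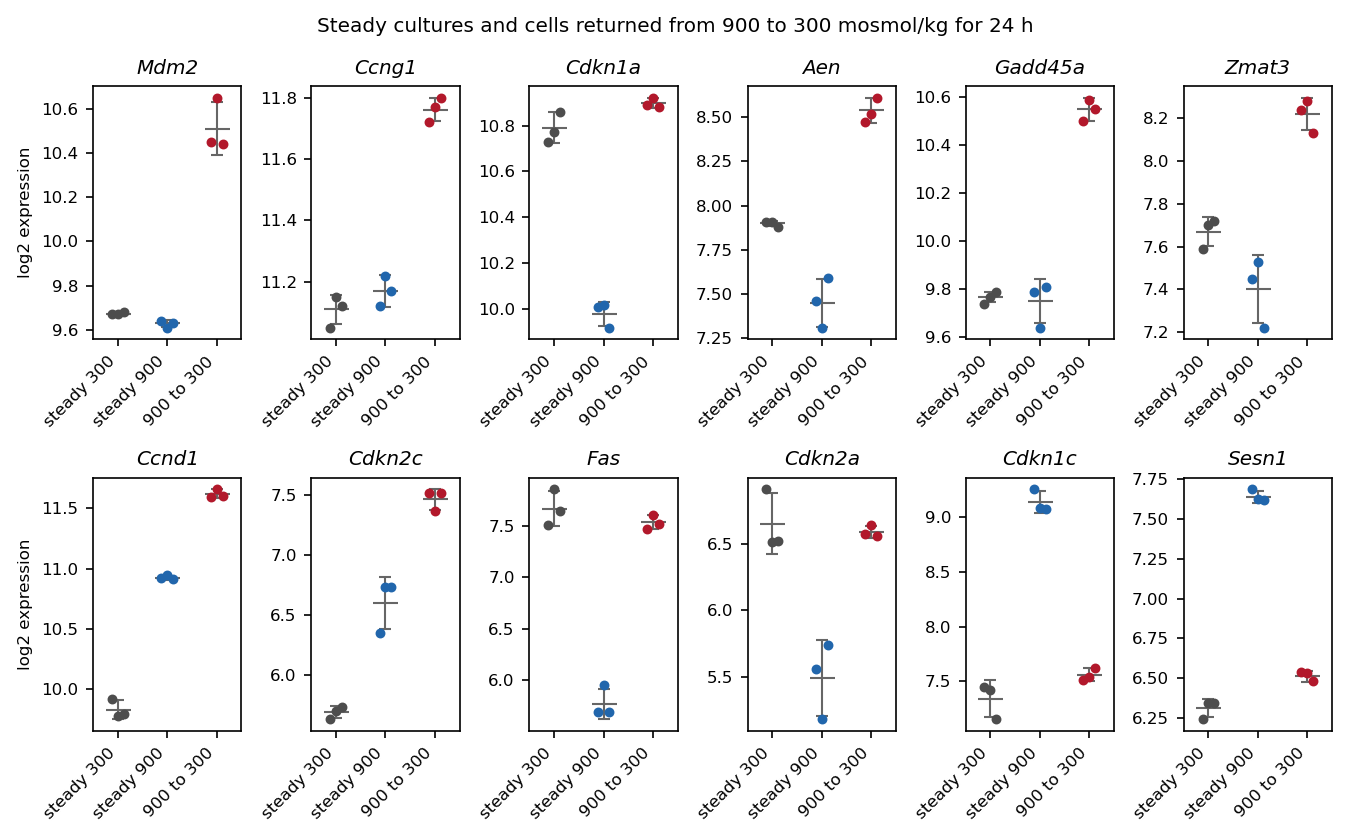
Log2 expression of 12 members in each array of steady 300, steady 900 and the cells returned from 900 to 300 mosmol/kg for 24 h. Points are arrays, and bars are the mean and SD of 3 arrays. In 8 of the panels, from Mdm2 to Cdkn2c, the returned arrays are above both steady groups, while Fas and Cdkn2a are back in the range of steady 300 and Cdkn1c and Sesn1 have left the high level of steady 900.

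The D-type cyclins, which activate Cdk4 and Cdk6 and start the passage through G1, split. Ccnd1 read 11.59, 11.66 and 11.6 in the returned arrays, 10.92, 10.95 and 10.91 in steady 900 and 9.92, 9.78 and 9.79 in steady 300. The 3 groups did not overlap, and the returned arrays were the highest. The returned cells were 0.70 ± 0.08 above steady 900 (adjusted p = 6.91e-08) and 1.79 ± 0.08 above steady 300 (3.45-fold, adjusted p = 6.44e-17). Ccnd2 read 7.22, 7.23 and 7.12 after the return, 6.65, 6.58 and 6.26 in steady 900 and 8.59, 8.7 and 8.74 in steady 300. Here the returned arrays lay between the steady groups, 0.70 ± 0.12 above steady 900 (adjusted p = 2.94e-05) and below steady 300 at -1.49 ± 0.12 (adjusted p = 1.99e-11). Ccng2, the gene of cyclin G2, a cyclin linked to arrest that FoxO factors induce, differed from steady 900 by -0.26, with a 95% interval of -0.48 to -0.05 and an adjusted p of 0.0522.

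The 3 Gadd45 genes, which encode small stress proteins that bind p21, Pcna and the MAP kinase kinase kinase Mekk4, all rose against steady 900 but ended in different places. Gadd45a, a p53 target in many cells, read 10.5, 10.59 and 10.55 in the returned arrays, 9.79, 9.64 and 9.81 in steady 900 and 9.74, 9.77 and 9.79 in steady 300. Both steady groups overlapped and the returned arrays lay above them, by 0.80 ± 0.08 (adjusted p = 5.09e-09) and 0.78 ± 0.08 (adjusted p = 3.99e-09). Gadd45b read 10.25, 10.13 and 10.24 after the return, 9.72, 9.71 and 9.75 in steady 900 and 9.85, 9.78 and 9.92 in steady 300. No group overlapped with another, and the returned arrays were 0.48 ± 0.07 and 0.36 ± 0.07 above steady 900 and steady 300 (adjusted p = 3.09e-06 and 0.000139). Gadd45g rose by 0.78 ± 0.12 against steady 900 (adjusted p = 4.95e-06) and stayed below steady 300, at a difference of -1.01 ± 0.12 (adjusted p = 3.69e-08).

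Among the other arrest and stress genes, Sesn1, which encodes an inhibitor of mTORC1 signalling induced by p53 and by FoxO factors, read 6.54, 6.53 and 6.48 in the returned arrays, 7.69, 7.63 and 7.62 in steady 900 and 6.24, 6.34 and 6.34 in steady 300. Returned arrays had left steady 900 and lay just above steady 300. It fell by 1.13 ± 0.07 from steady 900, 2.19-fold, with an adjusted p of 1.21e-13. The difference from steady 300 was 0.21 ± 0.07 (adjusted p = 0.0136), which went to 0.0765 without steady 300 replicate 1. Zmat3, a p53 target that encodes an RNA-binding protein, was 0.82 ± 0.12 above steady 900 and 0.55 ± 0.12 above steady 300 (adjusted p = 3.71e-06 and 0.000523). Plk2, a stress-induced polo-like kinase gene, rose by 0.31 ± 0.09 against steady 900 (adjusted p = 0.0063). With means of 11.26 after the return and 11.11 in steady 300, Plk2 did not pass the test against steady 300. Its relative Plk3 passed neither test, with differences of -0.03 and -0.16.

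Cell death genes mostly rose, with 6 of 9 higher and 1 lower against steady 900, where 19.3% of all genes rose and 18.5% fell. Fas, the receptor of Fas ligand, read 7.47, 7.61 and 7.52 in the returned arrays, 5.69, 5.95 and 5.69 in steady 900 and 7.51, 7.86 and 7.65 in steady 300. Returned arrays overlapped with steady 300 and were far above steady 900. The rise of 1.76 ± 0.13, 3.39-fold, had an adjusted p of 5.6e-12, and the difference from steady 300 was -0.14, with a 95% interval of -0.40 to 0.13. Aen, which encodes an exonuclease that degrades DNA in apoptosis, read 8.47, 8.52 and 8.61 after the return, 7.46, 7.31 and 7.59 in steady 900 and 7.91, 7.91 and 7.88 in steady 300. All returned arrays were above both steady groups, by 1.08 ± 0.09 (adjusted p = 1.2e-10) and 0.63 ± 0.09 (adjusted p = 1.16e-06).

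Of the Bcl-2 family, the pore-forming Bax rose by 0.77 ± 0.08 against steady 900 (adjusted p = 3.06e-09) and stood 0.42 ± 0.08 above steady 300 (adjusted p = 3.75e-05). The BH3-only genes differed from it: Pmaip1, the gene of Noxa, rose by 0.36 ± 0.10 against steady 900 (adjusted p = 0.00478) yet was below steady 300 at -0.88 ± 0.10 (adjusted p = 1.99e-08), and Bbc3, the gene of Puma, was 0.19 ± 0.08 from steady 900 (adjusted p = 0.0567) and 0.31 ± 0.08 above steady 300 (adjusted p = 0.00174). Phlda3, which encodes a repressor of Akt, rose by 0.79 ± 0.11, and Ei24, which encodes a membrane protein of the endoplasmic reticulum, by 0.39 ± 0.09, and both were above steady 300 as well, by 0.49 and 0.63. Perp, a p53 target that is also a component of desmosomes, was the member of the group that fell, by 0.54 ± 0.09 (adjusted p = 1.6e-05), and it stayed 0.61 ± 0.09 above steady 300 (adjusted p = 1.87e-06). Tp53inp1, which encodes a cofactor of p53 in autophagy and death, passed neither test, at 0.04 and 0.20.

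Of the 4 repair and metabolism genes, 1 rose and 1 fell against steady 900, close to the 19.3% and 18.5% of all genes. Tigar, which encodes a phosphatase that lowers glycolytic flux, rose by 0.50 ± 0.11 against steady 900 (adjusted p = 0.000678), and Xpc, the gene of a damage sensor of nucleotide excision repair, fell by 0.39 ± 0.08 (adjusted p = 0.000113). Neither passed the test against steady 300, at 0.12 and -0.04. Rrm2b, which encodes the p53-inducible subunit of ribonucleotide reductase, did not pass against steady 900, at 0.21 with a 95% interval of -0.04 to 0.47, and was 0.99 ± 0.12 above steady 300 (adjusted p = 1.06e-07). Polk, the gene of a translesion polymerase, was 0.11 from steady 900 and 0.34 ± 0.10 above steady 300 (adjusted p = 0.00627, and 0.0555 without returned replicate 9).

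Genes of cell division moved beside these changes. Of 22 measured proliferation genes, such as Mki67 and Top2a, 22 were higher in the returned cells than in steady 900, with a median change of 1.32, and 22 were higher than in steady 300, with a median of 2.1. The log2 of their summed level was 11.92 to 11.95 in steady 300, 12.72 to 12.92 in steady 900 and 13.95 to 14.01 in the returned arrays. Ccnd1, Cdkn2c, Rrm2b and Ei24 had the same order of these 3 groups with no overlap of arrays. Mdm4, Ccng1, Bbc3, Polk and Tp53inp1 had it by group means. The part of proliferation in the members' results was not tested. Among 16 measured genes of the G1 machinery, 9 rose and 1 fell against steady 900, where 19.3% and 18.5% of all genes did. They were led by the phosphatase gene Cdkn3 at 1.49 ± 0.10, the pocket protein gene Rbl2 at -1.22 ± 0.10 and the cyclin E gene Ccne1 at 1.04 ± 0.09. Leukocyte markers fell in 7 of 12 cases and rose in 1 in the return, and their summed level was 11.03 to 11.13 in the returned arrays, 11.62 to 11.75 in steady 900 and 13.49 to 13.57 in steady 300. Against steady 300 they were lower in 12 of 12 cases. Fibroblast markers rose in 2 of 11 cases and fell in 2 against steady 900, and were lower than in steady 300 in 10, with a summed level of 11.8 to 11.83 in the returned arrays, 11.79 to 11.87 in steady 900 and 13.93 to 13.98 in steady 300. Principal cell markers fell in 10 of 13 cases and rose in 1 against steady 900, and were higher than in steady 300 in 10, with a summed level of 12.37 to 12.41 in the returned arrays, 14.16 to 14.26 in steady 900 and 10.28 to 10.42 in steady 300. The part of these cell types in the members' results was not tested.

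Regulators of p53 did not share a direction. Of 14 measured, 3 rose and 6 fell against steady 900, where 19.3% of all genes rose and 18.5% fell, with a median of 0.06. The checkpoint kinase gene Chek1 rose by 1.01 ± 0.10 (adjusted p = 1.57e-09), the p53 phosphatase gene Ppm1d changed by -0.80 ± 0.10 (adjusted p = 1.2e-07) and the acetyltransferase gene Ep300 by -0.98 ± 0.14 (adjusted p = 2.55e-06). Against steady 300, 7 were higher and 5 lower, where 20.4% and 22.2% of all genes were, and Chek1 led at 2.37 ± 0.10. A list of 19 other measured p53 targets had 9 higher and 4 lower against steady 900 with a median of 0.19, and 8 higher and 7 lower against steady 300 with a median of -0.07. The shares of all genes in these comparisons are those just given. The smallest adjusted p of that list belonged to Bcl6 at -1.86 ± 0.09, Thbs1 at 0.84 ± 0.06 and Tnfrsf10b, the gene of a death receptor, at 0.93 ± 0.09 against steady 900, and Sesn3 at 1.40 ± 0.07, the stress cytokine gene Gdf15 at 2.33 ± 0.15 and the apoptosome gene Apaf1 at -1.21 ± 0.08 against steady 300.

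Between the steady cultures, members moved in both directions. Steady 600 had 10 members higher and 6 lower than steady 300, where 13.7% of all genes were higher and 13.4% lower. Steady 900 had 4 higher and 11 lower than steady 600, where 11.3% and 12.9% were, and 10 higher and 11 lower than steady 300, where 20.2% and 22.3% were. At least 2-fold changes were seen for 4 members upward and 6 downward, where 4.78% and 5.47% of all genes had them. The members that rose were Cdkn1c, at 1.80 ± 0.09 in steady 900 against steady 300 (adjusted p = 1.77e-16), Sesn1 at 1.34 ± 0.07, Perp at 1.14 ± 0.09 and Ccnd1 at 1.09 ± 0.08, with Cdkn1b, Cdkn2c, Ccng2, Rrm2b, Xpc and Ei24 by less. The call of Ei24 was lost without steady 300 replicate 1 (adjusted p = 0.11) or steady 900 replicate 2 (adjusted p = 0.113). Those that fell by over 1 were Ccnd2 at -2.18 ± 0.12 (4.54-fold, adjusted p = 2.87e-15), Fas at -1.90 ± 0.13, Gadd45g at -1.79 ± 0.12, Cdkn2b at -1.29 ± 0.08, Pmaip1 at -1.24 ± 0.10 and Cdkn2a at -1.16 ± 0.14. Cdkn1a was lower in steady 900, at -0.81 ± 0.09, and Mdm2, Ccng1 and Gadd45a did not pass the test between steady 900 and steady 300. Fibroblast markers were lower in 8 of 11 cases and leukocyte markers in 12 of 12 in the same comparison, and their part in the lower values of Ccnd2, Fas, Cdkn2b and Gadd45g was not tested.

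Most of the change in Cdkn1c lay between 300 and 600 mosmol/kg, at 1.72 ± 0.09 (adjusted p = 1.75e-15), and Ccnd1 likewise, at 0.98 ± 0.08 (adjusted p = 8.88e-11). In the same step Gadd45g changed by -1.08 ± 0.12 and Fas by -1.33 ± 0.13. Between 600 and 900, Ccnd2 fell by 1.51 and Cdkn2b by 1.06, and Cdkn2c rose by 0.91 ± 0.15, Sesn1 by 0.83 ± 0.07 and Perp by 0.72 ± 0.09. Cdkn1a changed by -0.69 ± 0.09 between 600 and 900 (adjusted p = 5.93e-07), and its difference of -0.12 between steady 600 and steady 300 had a 95% interval of -0.30 to 0.07.

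**Figure D3:**
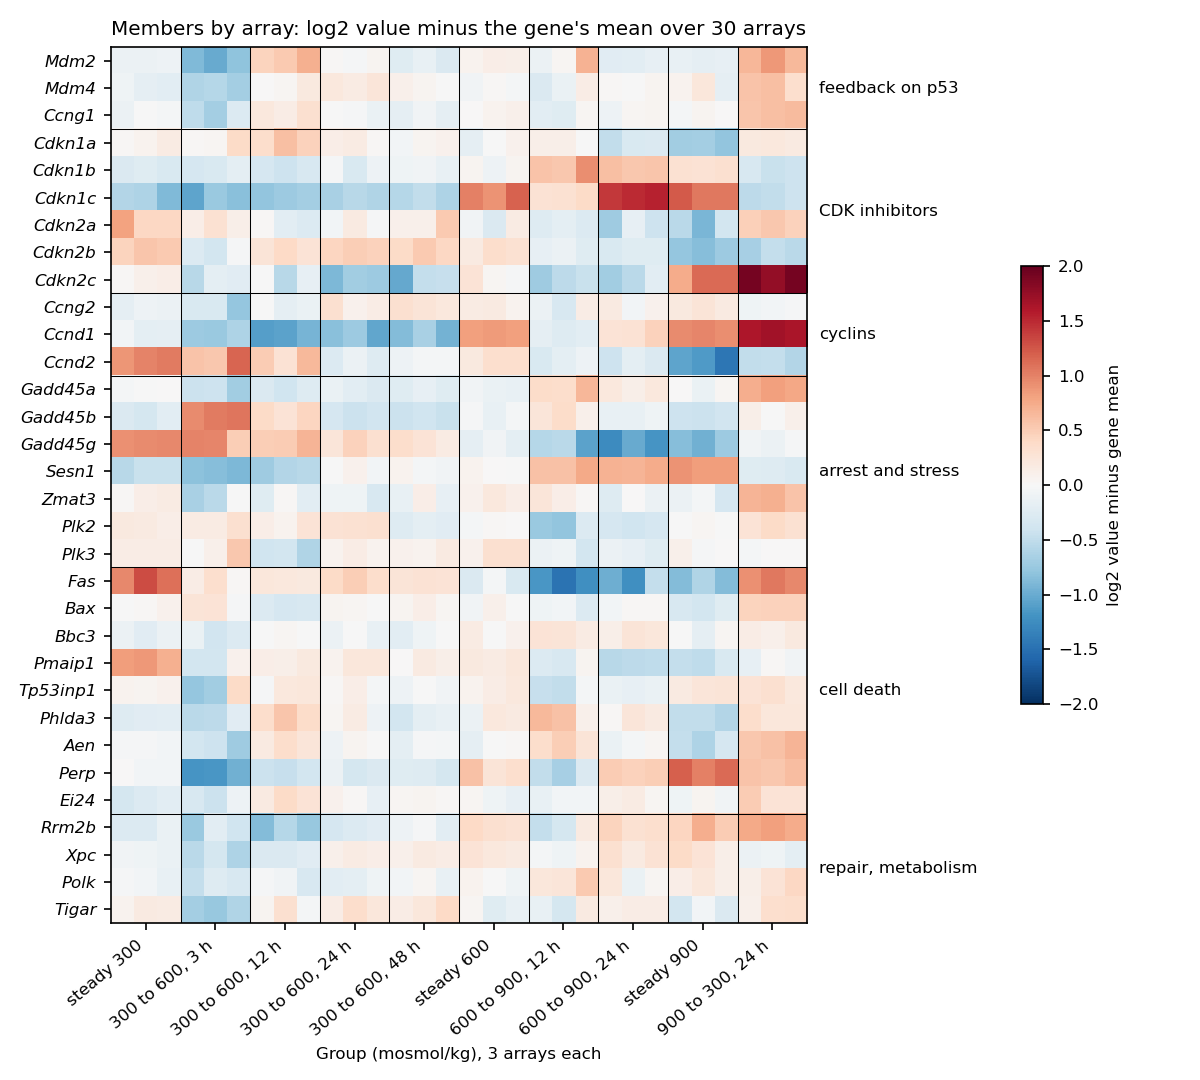
Heat map of the 32 measured members (rows, by role) over the 30 arrays (columns, by group), as log2 value minus the gene's mean over 30 arrays. The 3 arrays at the right, from cells returned to 300 mosmol/kg, are above the mean in most rows, Gadd45b has its highest group mean in the 3 h arrays after the step to 600, and Cdkn1c is high in the steady 600 group, both groups after the step to 900, and steady 900.

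After the step from 300 to 600 mosmol/kg, most members were lower at first. At 3 h, 1 of 32 rose and 19 fell, where 12.1% of all genes rose and 29.5% fell. This split depends on the scaling of the arrays: with quantile normalization 5 members rose and 15 fell, and with cyclic loess 7 rose and 17 fell, while the share of lower genes among all called went from 70.9% to 58.3% and 59.1%. Without replicate 3, the array that stood apart, 2 members rose and 19 fell. Gadd45b was the gene that rose, with 11.08, 11.17 and 11.2 at 3 h against 9.85, 9.78 and 9.92 in steady 300, a change of 1.30 ± 0.07 (2.46-fold, adjusted p = 7.61e-14). Perp changed by -1.07 ± 0.09, Pmaip1 by -1.03 ± 0.10, Fas by -0.95 ± 0.13 and Tigar by -0.82 ± 0.11. Mdm2 read 8.9, 8.78 and 8.98 at 3 h, below all steady 300 arrays, and fell by 0.78 ± 0.12 (adjusted p = 6.42e-06). Ccng1 fell by 0.43 ± 0.09, and Cdkn1a differed by 0.06 ± 0.09, with a 95% interval of -0.13 to 0.24. Proliferation genes fell in 16 of 22 cases at 3 h and rose in 1, and their part in the members' result was not tested.

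At 12 h several of these had turned. Mdm2 read 10.23, 10.31 and 10.5, above all steady 300 arrays, and the rise was 0.67 ± 0.12 (adjusted p = 5.08e-05). Of the members, 7 were higher and 11 lower than in steady 300, where 11.9% and 22.6% of all genes were. The other higher members were Phlda3 at 0.65 ± 0.11, Gadd45b at 0.64 ± 0.07, Ei24 at 0.56 ± 0.09 and Cdkn1a at 0.38 ± 0.09 (adjusted p = 0.00118), with Aen at 0.29 and Ccng1 at 0.28. The call of Aen was lost without 12 h replicate 2 (adjusted p = 0.0732) and that of Ccng1 without 12 h replicate 3 (adjusted p = 0.0638). Cdkn1a reached 11.05, 11.3 and 11.17 in these arrays, its highest group mean of the series. Lower at 12 h were, among others, Fas at -0.90 ± 0.13, Ccnd1 at -0.89 ± 0.08, Cdkn2a at -0.70 ± 0.14, Pmaip1 at -0.66 ± 0.10 and the kinase gene Plk3 at -0.61 ± 0.10.

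By 24 h and 48 h fewer members differed from steady 300. There were 5 higher and 7 lower at 24 h, where 9.4% and 13% of all genes were, and 4 higher and 8 lower at 48 h, where 9.57% and 12.0% were. Mdm2 was at 0.13 and -0.11, Cdkn1a at 0.02 and -0.05 and Ccng1 at 0.00 and -0.09 at these times, and none of these passed the test. Ccnd2 remained low, at -1.18 ± 0.12 and -1.03 ± 0.12, Cdkn2c at -0.87 ± 0.15 and -0.74 ± 0.15, Ccnd1 at -0.72 ± 0.08 and -0.68 ± 0.08, Fas at -0.71 ± 0.13 and -0.85 ± 0.13 and Pmaip1 at -0.64 ± 0.10 and -0.71 ± 0.10. Sesn1 had turned from a fall at 3 h to a rise of 0.49 ± 0.07 and 0.47 ± 0.07. Between 3 h and 48 h, tested directly, 17 members rose and 4 fell, where 29.7% of all genes rose and 15.9% fell, and this became 11 and 8 with quantile normalization and 9 and 8 with cyclic loess, and 18 and 5 without 3 h replicate 3. Gadd45b fell by 1.44 between these times and Tigar rose by 0.94 ± 0.11. Proliferation genes were lower than in steady 300 in 20 of 22 cases at both times, leukocyte markers in 10 of 12 at both, and fibroblast markers in 8 of 11 at 24 h and 9 of 11 at 48 h. Their part in the lower values of Ccnd2, Cdkn2c, Ccnd1, Fas and Pmaip1 was not tested.

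**Figure D4:**
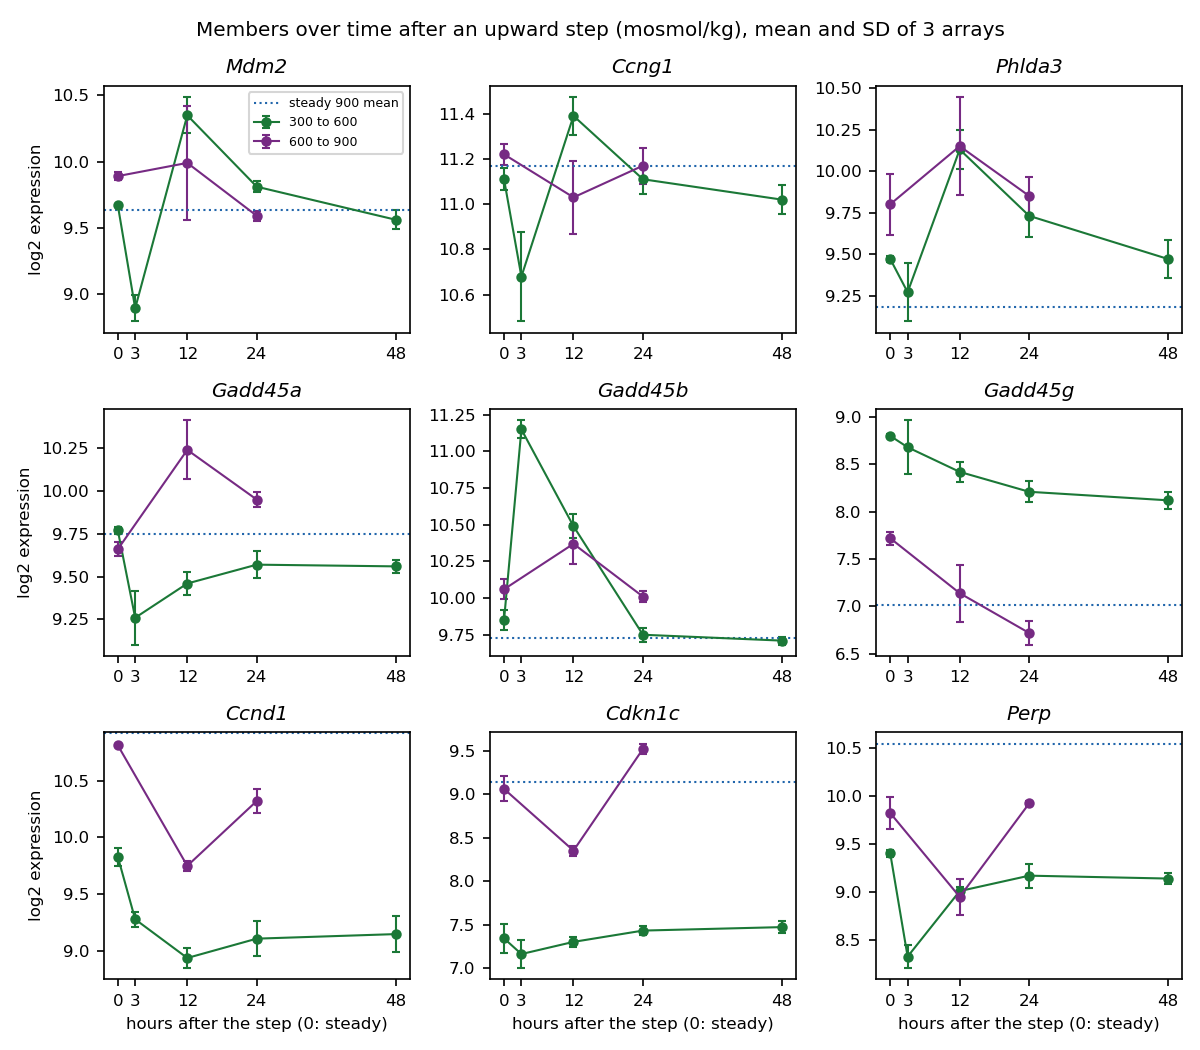
Log2 expression of 9 members against hours after the step from 300 to 600 mosmol/kg (green) and from 600 to 900 (purple), as mean and SD of 3 arrays, with the steady culture before the step at 0 h and the mean of steady 900 dotted. Mdm2 and Ccng1 are low at 3 h and high at 12 h after the step to 600, Gadd45b is highest at 3 h, and Ccnd1 after that step stays below the value it has in steady 600.

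Cells 48 h after the step to 600 mosmol/kg differed from steady cultures at 600. Of the members, 3 were higher at 48 h than in steady 600 and 9 lower, where 9.47% and 12.5% of all genes were. With median centring the counts were 3 and 6, and the share of lower genes among all called went from 56.9% to 46.9%. With cyclic loess the counts were 3 and 11. Ccnd1 was opposite in direction in the acute step and in steady culture: it read 9.1, 9.33 and 9.03 at 48 h and 10.8, 10.83 and 10.8 in steady 600, a difference of -1.66 ± 0.08 (adjusted p = 1.81e-15), with steady 300 lying between. Cdkn1c read 7.47, 7.54 and 7.41 at 48 h and 9.04, 8.93 and 9.21 in steady 600, a difference of -1.58 ± 0.09 (adjusted p = 2.32e-14), and at none of the 4 times after the step did it pass the test against steady 300. Also lower at 48 h than in steady 600 were Cdkn2c at -0.75 ± 0.15, Perp at -0.68 ± 0.09 and Gadd45b at -0.36 ± 0.07.

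After the step from 600 to 900 mosmol/kg, more members were lower than higher, as was so over all genes. Of the members called at 12 h, 66.7% were lower, close to the share among all called genes. At 12 h, 7 rose and 14 fell against steady 600, where 12.5% of all genes rose and 25.3% fell; the share of lower genes among all called was 67.0%, and 54.3% to 55.8% under the 3 other scalings. Without replicate 9, which stood apart, 6 members rose and 16 fell. Members that fell by over 1 were Fas at -1.08 ± 0.13 and Ccnd1 at -1.06 ± 0.08, followed by Perp at -0.88 ± 0.09. Cdkn1c changed by -0.70 ± 0.09 (adjusted p = 1.96e-07). Cdkn1b rose by 0.67 ± 0.09 (adjusted p = 2.36e-07), Sesn1 by 0.62 ± 0.07 and Gadd45a by 0.58 ± 0.08 (adjusted p = 1.51e-06). Gadd45a read 10.15, 10.13 and 10.44 at 12 h, all above steady 600 at 9.71, 9.65 and 9.63. Mdm2 read 9.67, 9.82 and 10.48 here, the last in the array that stood apart, and at 0.10 ± 0.12 did not pass the test.

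At 24 h after that step, 4 members were higher and 10 lower, where 11.2% and 14.7% of all genes were, the share of lower genes among all called being 56.7%, and 46.0% with median centring. Gadd45g changed by -1.0 ± 0.12 (adjusted p = 1.3e-07), Pmaip1 by -0.72 ± 0.10, Fas by -0.69 ± 0.13, Ccnd2 by -0.59 ± 0.12 and Cdkn2b by -0.55 ± 0.08. The 4 that rose were Sesn1 at 0.68 ± 0.07, Cdkn1b at 0.56 ± 0.09, Cdkn1c at 0.46 ± 0.09 and Gadd45a at 0.29 ± 0.08. Cdkn1c thus went from below steady 600 at 12 h to above it at 24 h. Against steady 900, the 24 h cells had 11 members higher and 4 lower, where 9.47% and 8.83% of all genes were. Cdkn2c was the furthest apart, at -1.48 ± 0.15 (adjusted p = 1.22e-08), and Ccnd2 was 0.91 ± 0.12 higher, Phlda3 0.67 ± 0.11, Cdkn2b 0.52 ± 0.08 and Cdkn1a 0.36 ± 0.09. Perp and Ccnd1 were lower, at -0.62 ± 0.09 and -0.60 ± 0.08. Proliferation genes were lower than in steady 900 in 22 of 22 cases at this time. Against steady 600, they were lower in 17 of 22 cases at 12 h and 19 at 24 h, leukocyte markers in 11 of 12 at both times, and fibroblast markers in 8 of 11 at 12 h and 9 at 24 h. Of 13 principal cell markers, 3 rose and 6 fell at 12 h, and 5 rose and 3 fell at 24 h. The part of these genes in the members' results was not tested.

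Direct tests of differences compared the 24 h changes of the steps. The change after the step to 900 and the change after the step to 600 differed for 5 of 32 members, 3 more positive and 2 more negative, where 7.48% and 5.46% of all genes were. These were Ccnd2 at 0.59 ± 0.17, Gadd45a at 0.49 ± 0.12, Cdkn1b at 0.43 ± 0.12, Plk2 at -0.49 ± 0.13 and Cdkn2b at -0.50 ± 0.11. The count was 8 with quantile normalization and 12 when only the compared arrays were fitted. Ccnd2 lost its call without steady 600 replicate 1 (adjusted p = 0.0507) or 24 h replicate 2 after the step to 900 (adjusted p = 0.0546), and Cdkn1b without steady 600 replicate 2 (adjusted p = 0.0597) or 24 h replicate 2 after the step to 600 (adjusted p = 0.0717). The change on return to 300 and the change after the step from 300 to 600 differed for 21 members, 16 more positive and 5 more negative, where 19.8% and 17.2% of all genes were. The return is a downward and larger step, and the other is upward. A gene that moves in opposite directions with them therefore differs by design, and the test does not tell this from an unequal response. Fas led at 2.47 ± 0.18 (adjusted p = 5.51e-12), then Ccnd2 at 1.88 ± 0.17, Cdkn2c at 1.72 ± 0.21, Cdkn2a at 1.61 ± 0.20 and Ccnd1 at 1.42 ± 0.12, with Cdkn1c at -1.68 ± 0.13 and Sesn1 at -1.62 ± 0.10 in the other direction.

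Over the 10 groups, the span of group means was widest for Ccnd1, at 2.68 between 12 h after the step to 600 and the return, and for Cdkn2c, at 2.63. Fas spanned 2.41, Cdkn1c 2.36, Perp 2.21 and Ccnd2 2.18, and Bbc3 the least, at 0.49. The 3 h group held the lowest mean and the returned group the highest for Mdm2, Mdm4, Ccng1, Gadd45a, Zmat3, Aen, Ei24, Tigar and Tp53inp1. These ranks were not tested, and the share of all genes with the same ranks was not counted. At 3 h 29.5% of all genes fell against steady 300, and that split depended on the scaling. Some ranks were near ties: Ei24 was at 9.56 at 3 h and 9.57 in steady 300, and Aen at 7.44 at 3 h and 7.45 in steady 900. Tigar was at 7.28 after the return and 7.27 at 48 h, and Tp53inp1 at 9.57 after the return and 9.52 in steady 900. The 3 h arrays of Tp53inp1 read 8.53, 8.6 and 9.68, the last being its highest value of the series, in the array that stood apart. Their mean of 8.93 was close to the 8.97 at 12 h after the step to 900. Tp53inp1 was the member with the fewest calls, 2 of 16 tests.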

How the data were processed

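The values analysed are log2 expression per probe set, made and deposited by the authors with RMA, per the submitters' processing notes; version and settings: not given in the sources used here. RMA values flatten towards both extremes, so changes of the dimmest and brightest genes can be understated. By the platform annotation, 15310 of 29170 probe sets had 1 symbol, 323 several and 13537 none. Each gene took its single-symbol probe set with the highest mean over 30 arrays. Tests used limma 3.58.1 in R 4.3.3 (1 mean per group over 30 arrays, eBayes, Benjamini-Hochberg adjustment over 14506 genes, threshold 0.05), tested on simulated data. Precision is limited by having 3 arrays in a group. The members, lists and tests were chosen with earlier results of these data known. Array values were given for members changed at least 2-fold in the return and for Cdkn1a, Mdm2, Ccng1, Gadd45a, Gadd45b, Ccnd1 and Ccnd2, and for Cdkn2c, chosen after its values were seen; in other comparisons members changed at least 2-fold were named, or the 5 with the smallest adjusted p; further members are given by role. Alternatives were other scalings, a filter on dim genes, the mean of probe sets, a replicate block, trend and robust eBayes, only the compared arrays, and leaving out each array.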

Additional observations from a re-analysis of the deposited data

Results flagged for a closer look

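The results here are members whose 24 h change differed between steps by a test of the difference itself (limma, adjusted p over 14506 genes). Between the step from 600 to 900 mosmol/kg and the step from 300 to 600, the differences in log2 change were 0.59 for Ccnd2, 0.49 for Gadd45a, 0.43 for Cdkn1b, -0.49 for Plk2 and -0.5 for Cdkn2b. These 3 more positive and 2 more negative of 32 members are near the shares of all genes, 7.48% and 5.46%. Ccnd2 and Cdkn1b lost their calls when certain single arrays were left out.

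Between the return from 900 to 300 and the step from 300 to 600, the more positive changes in the return were 2.47 for Fas, 1.88 for Ccnd2, 1.72 for Cdkn2c, 1.61 for Cdkn2a, 1.42 for Ccnd1, 1.37 for Gadd45g, 1.09 for Zmat3, 1.07 for Aen, 1.0 for Gadd45a, 1.0 for Pmaip1, 0.9 for Cdkn1a, 0.77 for Bax, 0.75 for Mdm2, 0.59 for Ccng1, 0.58 for Gadd45b and 0.53 for Phlda3. The more negative changes were -1.68 for Cdkn1c, -1.62 for Sesn1, -0.84 for Cdkn1b, -0.62 for Xpc and -0.58 for Ccng2. Over all genes, 19.8% were more positive and 17.2% more negative. These steps go in opposite directions and differ in size, so a gene that moves oppositely with them differs here by design.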

How the results depend on the processing

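For 272 member changes, 3964 values were computed under the alternatives. Of these values, 3768 kept their direction and their side of the threshold, 196 were no longer past it and 0 reversed. The 272 were called changes, apart from that of Cdkn1a in the return against steady 300, which had not passed. Calls lost were 142 of 1788 with 1 array left out and, of 272 each, 16 with cyclic loess, 15 with quantile normalization, 11 with only the compared arrays, 8 with median centring, 4 with the replicate block and 0 with the dim filter, the mean of probe sets, or trend and robust eBayes. For members whose 24 h change differed between the step from 600 to 900 and the step from 300 to 600, the count of 5 became 8 with quantile normalization and 12 with only the compared arrays (4 to 7 with 1 array left out); the cause was not tested. No other count of called members, higher and lower together, moved by over 1.5 times. In that comparison cyclic loess gave 5 higher and 2 lower members. With the replicate number as a block, the return had 27 members called against steady 900 and 21 against steady 300, from 26 and 22. Whether the numbers pair the arrays is not known from the labels. Same-numbered deviations correlated at -0.0988 to 0.238, with 3 of 37 above 0.1. Deviations from a group mean cancel out within each group of 3 arrays, so these correlations cannot settle it. The alternatives for the count of members above both steady groups were chosen after seeing the data. Signal over background was not used here, so low values such as those of Cdkn2c, and of Fas and Cdkn2a in steady 900, have no bound.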
